A study of Mus musculus with 15 samples.

Results

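The 59 genes described here encode the machinery of mitosis, from the cyclins and kinases that start it to the proteins that separate the chromosomes and divide the cell. They were taken as a list of gene symbols, matched to the NCBI Gene identifiers of the deposited files, out of 36528 identifiers listed. All 59 were listed, and 58 passed the filter on low counts, the exception being Kifc1 with 92 counts over all libraries. RNA came from tumour nests of murine basal cell carcinoma, cut out of frozen skin by laser capture. The mice carried K14Cre-ER, Ptch1fl/fl, p53fl/fl and Lgr5GFP. All 3 groups therefore share floxed alleles of the Hedgehog receptor gene Ptch1 and of the p53 gene, and a GFP marker allele of Lgr5. They also share a Cre-ER expressed where the keratin 14 promoter is on, in epithelium. Nests of 3 groups with 5 libraries each were sequenced: nests left after 28 days of vismodegib, an inhibitor of the Hedgehog transducer Smoothened, untreated nests positive for Ki67, and untreated nests negative for it. Ki67 is the protein product of Mki67, a member of the list, so the label of the untreated groups is tied to that gene, while vismodegib nests carry no Ki67 label. The sources used here give neither the age nor the number of the mice, nor how many nests a library holds. Where nests of 1 mouse went into more than 1 library, p-values come out too small.

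Entry into mitosis is driven by cyclin-dependent kinase 1 bound to cyclins A and B. Microtubules and kinesin motors then build the spindle, kinetochores tie chromosomes to it, and the spindle checkpoint holds back the anaphase-promoting complex until every chromosome is attached. Most of these genes are transcribed in G2 phase and mitosis and are shut off in resting cells, through promoter elements that include the CCAAT box bound by NF-Y and the cell cycle genes homology region (CHR), so their transcripts serve as markers of cycling cells. In skin they are expressed in dividing basal keratinocytes, in growing hair follicles and in basal cell carcinoma.

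Promoter sequences of 8 members are shown to set members rich in the known cell cycle motifs beside members with few or none. They are the 200 bases before a RefSeq start site in the build GRCm38.p6, written 5′ to 3′ on the strand of the gene in lower case. Where a gene had several windows, the first listed was used. For Mki67, Top2a, Hmmr and Bub3 the printed bases reach into the annotated gene, so another start site lies further upstream. Capitals mark each CCAAT and each TTTGAA or TTTAAA, forms of the CHR core, found on either strand, so that ATTGG and TTCAAA are CCAAT and TTTGAA read on the opposite strand. Those of Mki67 (chr7:135716380-135716579), Top2a (chr11:99024190-99024389), Hmmr (chr11:40733438-40733637), Ccnb2 (chr9:70421555-70421754), Cdk1 (chr10:69352913-69353112) and Nuf2 (chr1:169531465-169531664) lie on the minus strand, and those of Kif11 (chr19:37376182-37376381) and Bub3 (chr7:131560170-131560369) on the plus strand.
Mki67: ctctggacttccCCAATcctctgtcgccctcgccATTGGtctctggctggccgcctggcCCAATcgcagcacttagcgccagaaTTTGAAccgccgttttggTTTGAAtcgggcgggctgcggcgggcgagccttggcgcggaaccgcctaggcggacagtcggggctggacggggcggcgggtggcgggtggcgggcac
Top2a: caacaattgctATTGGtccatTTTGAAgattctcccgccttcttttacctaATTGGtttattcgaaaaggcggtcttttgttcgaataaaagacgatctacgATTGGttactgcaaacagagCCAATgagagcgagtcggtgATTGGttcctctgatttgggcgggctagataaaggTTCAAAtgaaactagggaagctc
Hmmr: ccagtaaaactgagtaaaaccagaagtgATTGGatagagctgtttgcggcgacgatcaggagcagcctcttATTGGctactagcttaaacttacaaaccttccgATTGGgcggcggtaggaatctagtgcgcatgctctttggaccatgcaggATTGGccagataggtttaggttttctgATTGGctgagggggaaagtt
Kif11: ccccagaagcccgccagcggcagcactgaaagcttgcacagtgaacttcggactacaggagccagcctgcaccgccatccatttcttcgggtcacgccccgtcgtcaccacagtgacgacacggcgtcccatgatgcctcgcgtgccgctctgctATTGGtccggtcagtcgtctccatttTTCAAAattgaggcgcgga
Ccnb2: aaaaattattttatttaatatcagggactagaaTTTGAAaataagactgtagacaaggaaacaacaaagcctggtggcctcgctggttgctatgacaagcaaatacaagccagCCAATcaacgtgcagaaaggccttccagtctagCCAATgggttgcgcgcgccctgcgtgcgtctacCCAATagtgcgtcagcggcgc
Cdk1: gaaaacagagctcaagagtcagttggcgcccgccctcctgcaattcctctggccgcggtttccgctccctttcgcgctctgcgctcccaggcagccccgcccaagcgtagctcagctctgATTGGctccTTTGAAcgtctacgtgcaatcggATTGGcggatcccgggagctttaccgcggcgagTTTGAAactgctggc
Bub3: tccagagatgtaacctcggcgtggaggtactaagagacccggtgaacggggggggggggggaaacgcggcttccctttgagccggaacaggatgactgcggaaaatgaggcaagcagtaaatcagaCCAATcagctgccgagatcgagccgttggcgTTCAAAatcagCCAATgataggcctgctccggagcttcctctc
Nuf2: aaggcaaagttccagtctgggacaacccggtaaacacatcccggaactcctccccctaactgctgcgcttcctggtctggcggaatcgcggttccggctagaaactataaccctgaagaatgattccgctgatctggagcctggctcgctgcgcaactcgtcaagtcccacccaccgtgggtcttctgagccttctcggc
Hmmr holds 5 CCAAT matches in the 250 bases before its start site and Top2a 6, while Nuf2 has no match to any of the 3 motifs in these letters and Bub3 holds 2 CCAAT and 1 TTTGAA. Of the 51 members with a RefSeq promoter window, 36 (70.6%) had at least 1 CCAAT in those 250 bases, against 34.5% of all 27025 genes with a window. At least 2 CCAAT stood before 23 members (45.1%, against 10.5% of all genes), and at least 1 TTTGAA before 18 (35.3%, against 16.3%). TTTAAA stood before 8 members (15.7%, against 12.1%). The CCAAT matches of the members numbered 76, of which 61 (80.3%) began within 150 bases of the start site. Windows for Spc24, Incenp, Cdc25c, Kif20a, Tpx2, Smc4, Aurkb and Ccna2 were not used here. Between the untreated groups, CCAAT stood before 12 of the 19 members called lower (63.2%) and 23 of the 31 not called (74.2%). A match says only that the letters are present, and their absence says nothing of a factor.

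**Figure D1:**
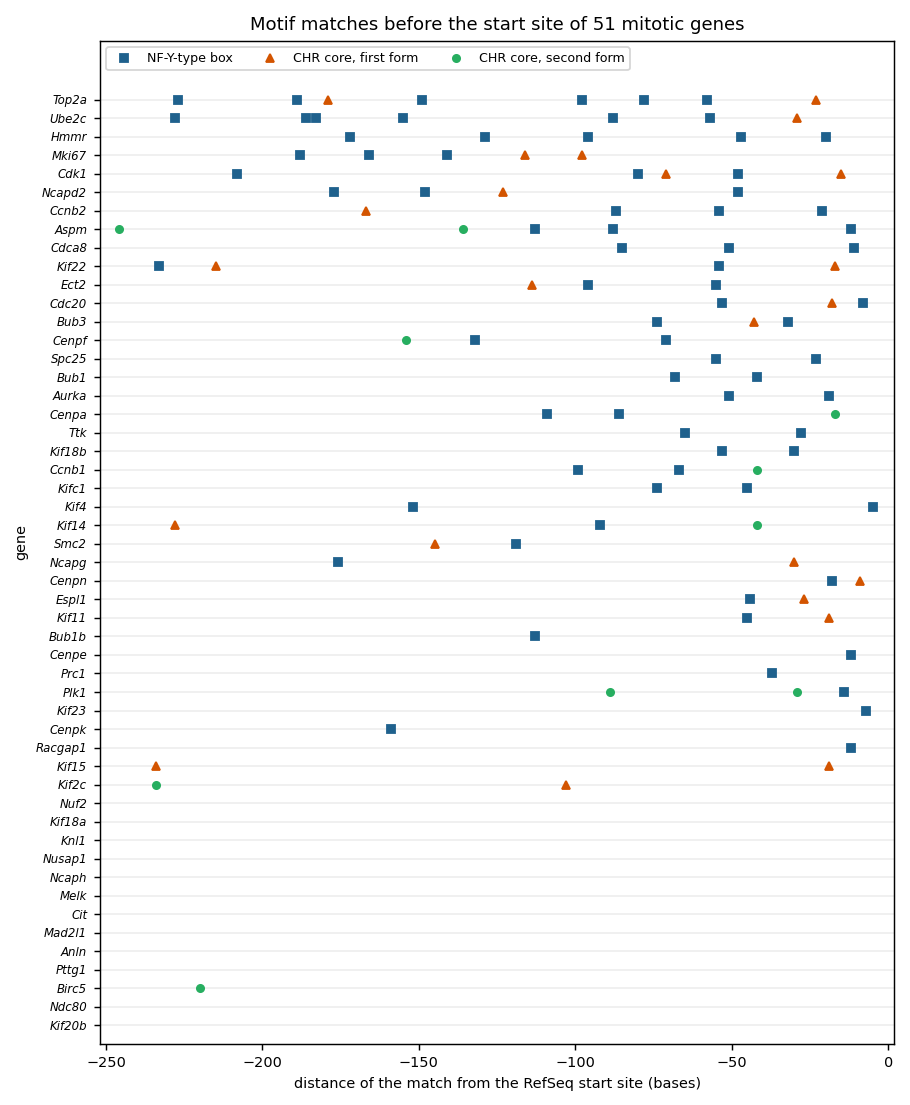
Distance of each motif match from the RefSeq start site in bases (x axis) for the 51 members with a promoter window (y axis), with squares for CCAAT, triangles for TTTGAA and circles for TTTAAA. Members are ordered by their number of CCAAT matches, from 6 in Top2a and Ube2c to 0 in the lowest rows, and 61 of the 76 CCAAT matches lie within 150 bases of the start.

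Library totals were 4887381 to 10328822 counts. Libraries of a group are numbered here in the order of their records, so equal numbers in different groups mark no pair. Levels are CPM, counts divided by a library size that was scaled by the trimmed mean of M values (TMM). The floxed alleles check no label, since all groups carry them. The level of Ptch1 transcript did separate the vismodegib libraries, at 142 to 923 CPM after vismodegib against 2446 to 3758 in Ki67-positive nests and 2053 to 3727 in Ki67-negative nests. Mki67 transcript went with the labels, with 587 to 1147 CPM in nests labelled positive and 234 to 408 CPM in nests labelled negative. Markers of basal epithelium were abundant in every group (11 genes summing to 13595 to 16619.8 CPM after vismodegib, 8957 to 10735 and 7267 to 10399.8 in the untreated groups). Ki67-negative library 5 stood apart from all others on the second principal component of the whole transcriptome (score 122, against −26.4 to 8.2) and had counts in 19669 genes, against 21653 to 23322 elsewhere. The Ki67-negative libraries also carry a later range of accession numbers, so a batch that this may mark and the group cannot be told apart. Xist exceeded the Y-linked Ddx3y in 3 vismodegib, 1 Ki67-positive and 1 Ki67-negative libraries.

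Untreated nests negative for Ki67 had less of the mitotic transcripts as a group than nests positive for it, with a median log2 fold change over the 58 measured members of −1.23, against 0.01 over all 17282 genes tested. All fold changes are given on the log2 scale. Every one of the 58 was lower in the Ki67-negative group, where 48.9% of all genes had a fold change below 0. Of the 58, 21 fell (edgeR quasi-likelihood test, Benjamini-Hochberg adjusted p under 0.05). In the whole comparison 30 genes fell and 0 rose, so 0.174% of all genes were called lower. Of those 30 genes, 21 (70.0%) are members of the list. The list was chosen with earlier results of these data known, so this overlap only describes these data. Mki67, whose protein product gives the groups their label, is among the 21 and is in every count of members given here. The 58 fold changes share the same 10 libraries and are not independent of each other. For 43 members every Ki67-negative library lay below every Ki67-positive one, against 0.845% of all genes. At an unadjusted p under 0.05, 55 members were lower, against 3.31% of all genes, and 0 were higher. For the count of 0 genes called higher, 582 (3.37%) were higher at an unadjusted p under 0.05, DESeq2 called 5 and voom 0, of which none was a member. The summed level of the members was 2938 to 5518 CPM where nests were positive and 1252 to 2127 CPM where they were negative. In bulk nests, fewer dividing cells and less of each transcript per cell cannot be told apart.

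The adjusted calls of this comparison were lost when any 1 of several libraries was left out, while the direction held for nearly all members. Why the calls were lost was not tested. No member was called lower without Ki67-positive library 4, or without Ki67-negative library 3, 4 or 5. Without Ki67-positive library 5 the count was 1, and without Ki67-negative library 2 it was 6. A fit on the 2 groups alone also called 0 members, voom called 10 and DESeq2 42. Over the 15 fits that each leave out 1 library, the median stayed between −1.34 and −1.09 and 50 to 55 members were lower at an unadjusted p under 0.05, although Pttg1 had a fold change above 0 without Ki67-negative library 1 or 5. Each of the 21 calls was lost in 4 to 14 of those fits.

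Nests left after vismodegib had more of many mitotic transcripts than Ki67-negative nests. The Ki67-negative nests were chosen by that label and the vismodegib nests were not, so treatment and choice by label cannot be told apart. In that comparison 31 members rose and 0 fell (53.4% of 58, where 15.4% of all genes were called higher), with a median log2 fold change of 0.76, against −0.03 over all genes. Fold changes were above 0 for 55 members (48.1% of all genes) and below 0 for 3 (51.9%). No member was lower at an unadjusted p under 0.05, and DESeq2 and voom called 34 and 28 higher and 0 lower. For 18 members all 5 vismodegib libraries lay above all 5 Ki67-negative ones, against 10.4% of all genes. Of the 31, 21 were called in each of the 15 fits that leave out 1 library. The other 10 were lost in at least 1 of those fits, most often without Ki67-negative library 3 (10 lost) or vismodegib library 2 (9 lost). With the Xist indicator as a covariate 21 members were higher.

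In vismodegib against Ki67-positive nests most members had a fold change below 0, while the share called was close to that of all genes. Of the 58, 11 fell and 0 rose (19.0%, where 13.4% of all genes were called lower and 26.0% in either direction), a share near the background. No member was higher at an unadjusted p under 0.05, and DESeq2 and voom called 13 and 12 lower and 0 higher. The median log2 fold change was −0.46, against −0.02 over all genes, and 54 members were below 0 (51.5% of all genes were) and 4 above it (48.5%), namely Smc4, Pttg1, Anln and Ttk. For 5 members the groups did not overlap, against 10.1% of all genes. Only 3 of the 11 calls, Kif15, Ncapd2 and Espl1, stood in all 15 fits that leave out 1 library. Without Ki67-positive library 5, the library with the highest member levels, 3 members were called and the median was −0.31. Without vismodegib library 3 or 5, 7 and 6 were called. Both comparisons use the same vismodegib libraries and are not independent. The Ki67-positive nests too were chosen by their label, so treatment and choice by label cannot be told apart here either. Summed member levels were 2623 to 3722 CPM after vismodegib.

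**Figure D2:**
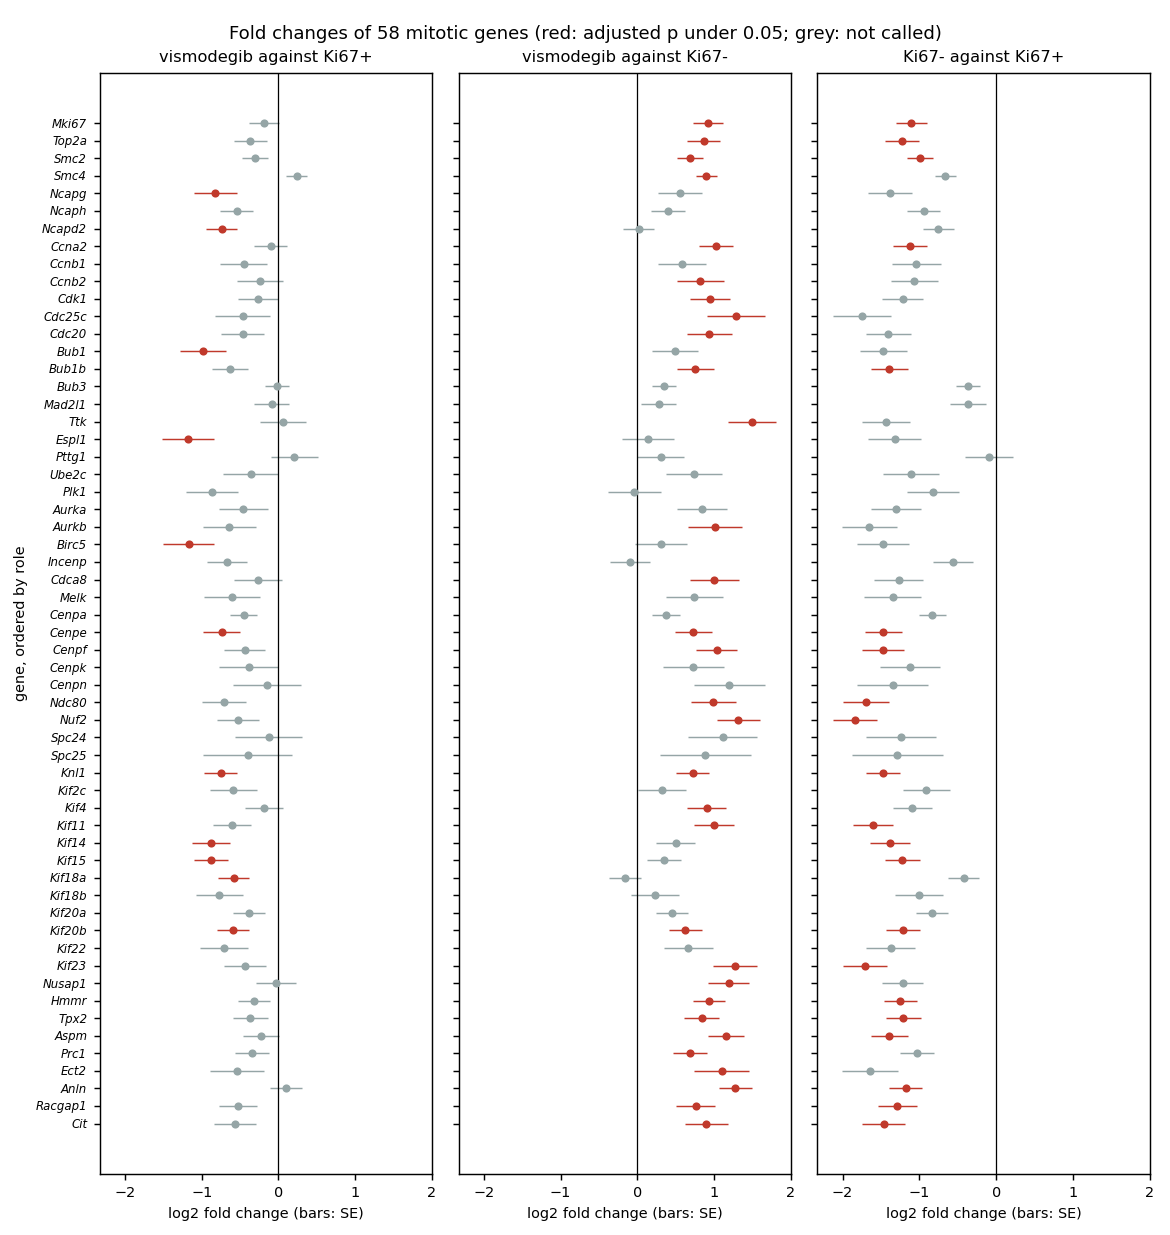
Log2 fold changes (x axis, bars are standard errors) of the 58 measured genes, ordered by role (y axis), in the 3 comparisons, with genes at an adjusted p under 0.05 in red. In Ki67-negative against Ki67-positive nests all 58 points lie below 0 and 21 are red, 31 are red above 0 in vismodegib against Ki67-negative nests, and 11 are red below 0 in vismodegib against Ki67-positive nests.

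Counts by role, here and below, are to be read against all genes tested. Of those, 15.4% were called higher in vismodegib against Ki67-negative nests and 13.4% lower in vismodegib against Ki67-positive nests. Between the untreated groups 0.174% were called lower. Cyclin A2, cyclins B1 and B2, Cdk1 and its activating phosphatase Cdc25c form the switch into mitosis. Of these 5, 4 rose in vismodegib against Ki67-negative nests, 1 fell in Ki67-negative against Ki67-positive nests, and 0 were called in vismodegib against Ki67-positive nests (0 at an unadjusted p under 0.05, and 0 by DESeq2 and by voom). Ccna2 measured 71.6, 59.5, 72.6, 90.2 and 111 CPM in the Ki67-positive libraries, 58.6, 44.3, 24.4, 30.3 and 27.7 in the Ki67-negative ones and 83.1, 77.2, 81.4, 68.3 and 67.6 after vismodegib. Both the vismodegib and the Ki67-positive libraries lay wholly above the Ki67-negative ones, with log2 fold changes of −1.12 (SE 0.22, adjusted p = 0.0434) in Ki67-negative against Ki67-positive nests, 1.02 (SE 0.22, adjusted p = 0.00173) in vismodegib against Ki67-negative nests and −0.10 (SE 0.21, adjusted p = 0.779) in vismodegib against Ki67-positive nests. The Ccna2 call between the untreated groups was lost in 13 of the 15 fits that leave out 1 library (adjusted p up to 0.184). Cdk1 stood at 15.97, 12.7, 17.1, 19.996 and 23.5 CPM in Ki67-positive nests, at 5.81, 7.93, 5.25, 9.96 and 9.28 in Ki67-negative nests and at 17.7, 20.4, 15.8, 10.2 and 9.95 after vismodegib. Vismodegib libraries 4 and 5 came down to the level of the highest Ki67-negative library. Its fold change in vismodegib against Ki67-negative nests was 0.95 (SE 0.27, adjusted p = 0.0114). Cdc25c had 7.37, 17.2, 11.8, 21.02 and 20.6 CPM in the 5 Ki67-positive libraries, 6.62, 6.51, 5.65, 2.72 and 1.65 in the 5 Ki67-negative ones and 15.1, 12.8, 7.62, 8.99 and 11.9 in the 5 vismodegib ones. Cdc25c rose by 1.28 (SE 0.38, adjusted p = 0.0146) against Ki67-negative nests, without overlap. Ccnb2 measured 30.6, 28.5, 19.7, 38.5 and 52.2 CPM in the Ki67-positive libraries, 19.5, 8.64, 17.2, 20.8 and 14.7 in the Ki67-negative ones and 22.8, 52.02, 20.9, 23.2 and 24.1 after vismodegib. Vismodegib library 2 was far above the other 4 for Ccnb2, and its rise against Ki67-negative nests (0.82, SE 0.30, adjusted p = 0.0465) was lost in 9 of the 15 fits that leave out 1 library, with an adjusted p of 0.176 without vismodegib library 2. Ccnb1 stood at 11.5, 6.11, 6.30, 7.20 and 14.4 CPM in Ki67-positive nests, at 5.001, 4.82, 2.62, 5.43 and 4.04 in Ki67-negative nests and at 6.63, 9.01, 5.94, 6.32 and 5.24 after vismodegib. Ccnb1, which encodes cyclin B1, was separated between the untreated groups but passed the edgeR test in no comparison (−1.04, SE 0.31, adjusted p = 0.445 in Ki67-negative against Ki67-positive nests).

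Mitotic kinases and the chromosomal passenger complex, which holds Aurora B with survivin (Birc5), Incenp and borealin (Cdca8), correct attachments and start cytokinesis. Of these 7 members, 0 were called in Ki67-negative against Ki67-positive nests by edgeR or voom, while DESeq2 called 5 lower and all 7 were lower at an unadjusted p under 0.05. In vismodegib nests 2 rose against Ki67-negative nests (28.6%, against 15.4% of all genes). Against Ki67-positive nests 1 fell (14.3%, against 13.4%), a share near the background. Aurkb had 18.7, 36.98, 24.2, 30.6 and 38.8 CPM in the 5 Ki67-positive libraries, 15.2, 12.9, 5.25, 10.6 and 3.44 in the 5 Ki67-negative ones and 15.7, 30.4, 20.98, 12.4 and 16.5 in the 5 vismodegib ones. Aurkb was lowest in Ki67-negative libraries 3 and 5 and its untreated groups did not overlap (−1.65, SE 0.35, adjusted p = 0.0828). Against Ki67-negative nests it rose after vismodegib by 1.01 (SE 0.35, adjusted p = 0.0345), a call that did not hold without vismodegib library 2 or 3 (adjusted p = 0.0948 and 0.0658) or Ki67-negative library 3 or 5 (0.084 and 0.0646). Cdca8 measured 25.95, 17.8, 24.6, 33.7 and 30.7 CPM in the Ki67-positive libraries, 12.6, 17.8, 4.64, 15.1 and 4.64 in the Ki67-negative ones and 25.3, 24.5, 20.98, 18.1 and 21.5 after vismodegib. Cdca8 also rose, to 22.1 ± 2.89 CPM after vismodegib from 10.96 ± 6.06 in Ki67-negative nests (means ± SD, n = 5, edgeR adjusted p = 0.023), with an adjusted p of 0.0519 without Ki67-negative library 3. Birc5 stood at 38.2, 19.1, 18.5, 32.3 and 56.2 CPM in Ki67-positive nests, at 13.9, 13.7, 8.28, 17.97 and 4.94 in Ki67-negative nests and at 14.5, 18.2, 16.6, 11.9 and 11.7 after vismodegib. For Birc5 all 5 vismodegib libraries lay below all 5 Ki67-positive ones and overlapped the Ki67-negative ones. It fell by 1.17 on the log2 scale against Ki67-positive nests (SE 0.33, adjusted p = 0.0142, and 0.0568 without Ki67-positive library 5), and stood at 0.31 (SE 0.34, adjusted p = 0.517) against Ki67-negative ones. Plk1 had 10.1, 9.49, 10.6, 15.9 and 18.6 CPM in the 5 Ki67-positive libraries, 5.49, 6.66, 4.04, 6.64 and 13.5 in the 5 Ki67-negative ones and 7.55, 11.2, 7.12, 4.86 and 4.84 in the 5 vismodegib ones. Plk1, the kinase of spindle poles and mitotic exit, was not called by edgeR in any comparison. In vismodegib against Ki67-positive nests it stood at −0.86 (SE 0.34, adjusted p = 0.0693), and was called lower there by DESeq2 (adjusted p = 0.0485), by voom (0.0361), with only the groups compared (0.0413) and with the Xist covariate (0.00242). Its highest Ki67-negative value came from library 5. Incenp, the scaffold of the complex, was at 17.7 to 36.5 CPM after vismodegib and 18.9 to 44.7 CPM in Ki67-negative nests, which overlap. Aurka (−1.30, SE 0.33, adjusted p = 0.203) and Melk (−1.35, SE 0.37, adjusted p = 0.316), 2 other kinases, were lower in each Ki67-negative library than in each Ki67-positive one without passing the adjusted edgeR test, while DESeq2 called both lower (adjusted p = 0.0159 and 0.0422).

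The spindle checkpoint genes differed widely among themselves. Of 9 genes of the checkpoint and of anaphase control, 1 fell in Ki67-negative against Ki67-positive nests (11.1%, against 0.174% of all genes). In vismodegib against Ki67-negative nests 3 rose (33.3%, against 15.4%), and in vismodegib against Ki67-positive nests 2 fell (22.2%, against 13.4%). Bub1b measured 42.8, 50.003, 26.97, 44.2 and 78.1 CPM in the Ki67-positive libraries, 25.2, 16.7, 12.5, 20.1 and 17.5 in the Ki67-negative ones and 36.1, 37.2, 27.7, 25.5 and 29.5 after vismodegib. Bub1b, which encodes the checkpoint kinase-like protein BubR1, gave log2 fold changes of −1.39 (SE 0.24, adjusted p = 0.0252) in Ki67-negative against Ki67-positive nests, 0.76 (SE 0.24, adjusted p = 0.0236) in vismodegib against Ki67-negative nests and −0.63 (SE 0.24, adjusted p = 0.0589) in vismodegib against Ki67-positive nests. Its call against Ki67-negative nests did not hold without vismodegib library 1 or 2 (adjusted p = 0.0531 and 0.0503) or Ki67-negative library 2 or 3 (0.0503 and 0.0632). Bub1 stood at 25.2, 29.4, 28.3, 30.6 and 47.7 CPM in Ki67-positive nests, at 20.2, 10.9, 6.87, 14.3 and 5.68 in Ki67-negative nests and at 14.95, 21.3, 17.5, 17.3 and 10.6 after vismodegib. Bub1, a kinase of the same checkpoint, was lower in all 5 vismodegib libraries than in any Ki67-positive one (−0.98, SE 0.30, adjusted p = 0.0211, with an adjusted p of 0.0594 without vismodegib library 5 and 0.0711 without Ki67-positive library 5). Ttk had 12.7, 18.7, 14.7, 22.4 and 25.9 CPM in the 5 Ki67-positive libraries, 8.87, 7.08, 4.85, 6.04 and 7.93 in the 5 Ki67-negative ones and 35.3, 24.2, 13.1, 12.9 and 13.1 in the 5 vismodegib ones. Ttk, the Mps1 kinase that sets off the checkpoint, was highest in vismodegib libraries 1 and 2 and rose by 1.49 (SE 0.31, adjusted p = 0.00144) against Ki67-negative nests, the widest rise of any member in that comparison. Cdc20 measured 20.1, 15.1, 14.1, 26.9 and 27.5 CPM in the Ki67-positive libraries, 8.23, 7.79, 5.65, 8.76 and 8.53 in the Ki67-negative ones and 18.3, 25.1, 10.6, 9.12 and 12.05 after vismodegib. Cdc20, the activator of the anaphase-promoting complex, rose against Ki67-negative nests by 0.94 (SE 0.29, adjusted p = 0.0197), a call that did not hold without vismodegib library 2 (adjusted p = 0.0698) or Ki67-negative library 3 (0.0523). Espl1 stood at 20.3, 36.02, 28.5, 23.2 and 42.1 CPM in Ki67-positive nests, at 20.2, 15.2, 7.47, 5.13 and 11.8 in Ki67-negative nests and at 13.6, 20.7, 14.3, 10.1 and 7.46 after vismodegib. Espl1, which encodes separase, fell in vismodegib against Ki67-positive nests by 1.18 on the log2 scale (SE 0.34, adjusted p = 0.0149), the widest fall there, and its highest vismodegib library overlapped the lowest Ki67-positive one.

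Pttg1, Mad2l1 and Bub3 had the fold changes nearest to 0 of all members between the untreated groups. Pttg1 encodes securin, which holds separase inactive, and the others encode checkpoint proteins. Pttg1 measured 27.2, 18.97, 25.3, 19.5 and 17.2 CPM in the Ki67-positive libraries, 14.4, 24.2, 22.2, 34.3 and 6.28 in the Ki67-negative ones and 33.5, 25.5, 21.3, 21.5 and 23.4 after vismodegib, so the Ki67-negative range spans both other groups. The fold changes in Ki67-negative against Ki67-positive nests were −0.10 (SE 0.31, adjusted p = 0.973) for Pttg1, −0.37 (SE 0.16, adjusted p = 0.71) for Bub3 and −0.36 (SE 0.23, adjusted p = 0.823) for Mad2l1. Pttg1, Mad2l1 and the kinesin gene Kif18a were the 3 members not below an unadjusted p of 0.05 in that comparison. Ube2c, the ubiquitin-conjugating enzyme of the anaphase-promoting complex, ranged over 17.2 to 28.9, 2.83 to 15.7 and 7.90 to 27.2 CPM in Ki67-positive, Ki67-negative and vismodegib libraries.

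Kinetochore genes held 5 of the 21 calls in Ki67-negative against Ki67-positive nests, among 10 members. Nuf2 stood at 16.6, 12.9, 10.5, 18.1 and 29.5 CPM in Ki67-positive nests, at 6.62, 4.25, 3.63, 5.13 and 4.64 in Ki67-negative nests and at 14.95, 12.8, 11.8, 11.2 and 9.82 after vismodegib. Nuf2, part of the Ndc80 complex that grips microtubules, had the widest fall of all members there, with log2 fold changes of −1.84 (SE 0.28, adjusted p = 0.0211) in Ki67-negative against Ki67-positive nests, 1.31 (SE 0.28, adjusted p = 0.00168) in vismodegib against Ki67-negative nests and −0.53 (SE 0.27, adjusted p = 0.16) in vismodegib against Ki67-positive nests. Ndc80 had 12.3, 20.6, 16.3, 26.7 and 32.6 CPM in the 5 Ki67-positive libraries, 6.62, 10.6, 4.64, 6.19 and 5.09 in the 5 Ki67-negative ones and 16.2, 17.1, 9.90, 13.1 and 10.1 in the 5 vismodegib ones. Its partner Ndc80 gave −1.70 (SE 0.30, adjusted p = 0.0252) in that comparison and 0.99 (SE 0.30, adjusted p = 0.0166) in vismodegib against Ki67-negative nests. The remaining subunits Spc24 and Spc25 were not called by edgeR in any comparison, on 583 and 931 counts in all, and stood at −1.24 (SE 0.45, adjusted p = 0.632) and −1.29 (SE 0.59, adjusted p = 0.745) between the untreated groups. DESeq2 called Spc24 higher in vismodegib against Ki67-negative nests (adjusted p = 0.0403). Spc25 had 0 counts in Ki67-negative library 5, which allows up to 0.449 CPM at 3 counts. Knl1 measured 106, 126, 93.1, 137 and 220.5 CPM in the Ki67-positive libraries, 72.8, 49.01, 38.6, 41.5 and 43.98 in the Ki67-negative ones and 90.6, 93.3, 66.4, 74.4 and 80.5 after vismodegib. Knl1, the kinetochore scaffold for Bub1 and Bub1b, was one of 3 members called in all 3 comparisons, with Cenpe and Kif20b: −1.47, 0.72 and −0.75 in Ki67-negative against Ki67-positive, vismodegib against Ki67-negative and vismodegib against Ki67-positive nests. Its call against Ki67-positive nests had an adjusted p of 0.0589 without Ki67-positive library 5. Cenpe stood at 109, 143, 88.4, 134 and 209.5 CPM in Ki67-positive nests, at 43.4, 53.4, 31.1, 61.9 and 57.3 in Ki67-negative nests and at 110.4, 103, 55.3, 70.01 and 70.98 after vismodegib. Cenpe, a kinetochore kinesin, gave log2 fold changes of −1.47 (SE 0.24, adjusted p = 0.0239) in Ki67-negative against Ki67-positive nests, 0.73 (SE 0.24, adjusted p = 0.0284) in vismodegib against Ki67-negative nests and −0.74 (SE 0.24, adjusted p = 0.0287) in vismodegib against Ki67-positive nests. Its fall against Ki67-positive nests was lost in 5 and its rise against Ki67-negative nests in 4 of the 15 fits that leave out 1 library, with an adjusted p of up to 0.107 and 0.082. Cenpf had 129, 207, 126, 191 and 301 CPM in the 5 Ki67-positive libraries, 82.1, 71.1, 43.8, 61.1 and 84.5 in the 5 Ki67-negative ones and 192, 195, 99.3, 124 and 92.3 in the 5 vismodegib ones. Cenpf, a large protein of the outer kinetochore, rose after vismodegib against Ki67-negative nests by 1.03 (SE 0.27, adjusted p = 0.00731), without overlap. Cenpa measured 27.2, 31.2, 26.1, 40.2 and 44.9 CPM in the Ki67-positive libraries, 16.8, 18.7, 22.01, 17.2 and 20.6 in the Ki67-negative ones and 28.1, 27.99, 20.8, 23.9 and 22.9 after vismodegib. Cenpa, the histone variant that marks centromeres, separated the untreated groups but was not called by edgeR (−0.83, SE 0.18, adjusted p = 0.0861), while DESeq2 called it lower (adjusted p = 0.00552). Cenpk and Cenpn, of the inner kinetochore, had 634 counts each over all libraries and were not called by edgeR in any comparison. In vismodegib against Ki67-negative nests, DESeq2 and voom called Cenpn higher (adjusted p = 0.0219 and 0.0243).

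Kinesins supplied 5 of the 21 calls between the untreated groups and 4 of the 11 falls of vismodegib against Ki67-positive nests, out of 11 measured. Kif11 stood at 94.1, 82.6, 74.3, 119.9 and 136 CPM in Ki67-positive nests, at 53.4, 36.7, 19.99, 36.1 and 20.2 in Ki67-negative nests and at 87.7, 76.2, 64.03, 54.6 and 50.4 after vismodegib. Kif11, the motor that pushes spindle poles apart, gave log2 fold changes of −1.60 (SE 0.26, adjusted p = 0.0211) in Ki67-negative against Ki67-positive nests, 0.998 (SE 0.26, adjusted p = 0.00627) in vismodegib against Ki67-negative nests and −0.60 (SE 0.25, adjusted p = 0.0843) in vismodegib against Ki67-positive nests. Kif23 had 23.2, 56.3, 33.1, 51.5 and 67.6 CPM in the 5 Ki67-positive libraries, 17.7, 14.7, 13.3, 17.8 and 7.18 in the 5 Ki67-negative ones and 38.7, 46.6, 28.1, 28.7 and 28.9 in the 5 vismodegib ones. Kif23, of the centralspindlin complex of the midzone, rose by 1.27 (SE 0.29, adjusted p = 0.00257) in vismodegib against Ki67-negative nests. Kif15 measured 61.9, 103, 62.6, 106 and 150.3 CPM in the Ki67-positive libraries, 55.01, 39.7, 31.5, 32.9 and 48.2 in the Ki67-negative ones and 60.3, 59.5, 47.8, 46.9 and 49.1 after vismodegib. Kif15, which backs up Kif11, was lower in every vismodegib library than in any Ki67-positive one (−0.88, SE 0.23, adjusted p = 0.00735) and overlapped the Ki67-negative ones (0.34, SE 0.23, adjusted p = 0.257). Kif14 stood at 27.8, 44.9, 28.3, 43.3 and 59.1 CPM in Ki67-positive nests, at 15.3, 21.8, 10.3, 14.2 and 16.01 in Ki67-negative nests and at 26.4, 30.5, 19.4, 14.3 and 19.9 after vismodegib. Kif14, a partner of citron kinase in cytokinesis, fell in vismodegib against Ki67-positive nests by 0.88 on the log2 scale (SE 0.25, adjusted p = 0.0149, and 0.0553 without Ki67-positive library 5). Kif20b had 51.6, 80.9, 44.9, 63.9 and 105 CPM in the 5 Ki67-positive libraries, 33.4, 31.7, 23.8, 25.7 and 33.96 in the 5 Ki67-negative ones and 49.8, 59.6, 42.9, 42.9 and 34.2 in the 5 vismodegib ones. Kif20b, a midzone kinesin, was called in all 3 comparisons (−1.22, 0.62 and −0.59 in the same order), and its call against Ki67-positive nests was lost in 11 of the 15 fits that leave out 1 library, that against Ki67-negative nests in 5 of them (adjusted p up to 0.176 and 0.0877). Kif4 measured 29.02, 28.5, 27.7, 42.6 and 55.01 CPM in the Ki67-positive libraries, 16.3, 23.7, 10.3, 21.3 and 13.6 in the Ki67-negative ones and 37.8, 40.2, 26.7, 23.6 and 31.7 after vismodegib. Kif4, a chromosome-bound kinesin, rose against Ki67-negative nests by 0.90 (SE 0.25, adjusted p = 0.0109). Kif18a stood at 46.1, 40.8, 38.97, 47.1 and 61.5 CPM in Ki67-positive nests, at 49.2, 32.9, 31.3, 29.7 and 31.6 in Ki67-negative nests and at 33.3, 30.99, 29.6, 43.03 and 19.5 after vismodegib. Kif18a, which damps chromosome movement at the spindle equator, stood at −0.16 (SE 0.20, adjusted p = 0.584) in vismodegib against Ki67-negative nests, and its fall against Ki67-positive nests (−0.58, SE 0.20, adjusted p = 0.0426) was lost in 9 of the 15 fits that leave out 1 library (adjusted p up to 0.124). Kif2c, Kif18b, Kif20a and Kif22 were not called by edgeR in any comparison, with fold changes of −0.91, −1.002, −0.84 and −1.37 in Ki67-negative against Ki67-positive nests. DESeq2 called Kif20a and Kif22 lower there (adjusted p = 0.027 and 0.00732), and voom called Kif22 lower in vismodegib against Ki67-positive nests (0.0484). Kifc1, a minus-end motor, was at 0.461 to 3.03, 0.202 to 1.35 and 0.396 to 0.917 CPM in Ki67-positive, Ki67-negative and vismodegib libraries.

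All 4 genes of spindle-associated proteins rose in vismodegib against Ki67-negative nests without overlap, 3 fell in Ki67-negative against Ki67-positive nests, and 0 were called in vismodegib against Ki67-positive nests (0 at an unadjusted p under 0.05, by DESeq2 and by voom). Aspm had 92.3, 144, 104, 148 and 193 CPM in the 5 Ki67-positive libraries, 55.5, 53.97, 33.5, 60.5 and 56.1 in the 5 Ki67-negative ones and 147, 168, 75.5, 94.8 and 94.8 in the 5 vismodegib ones. Aspm, which focuses spindle poles, gave log2 fold changes of −1.39 (SE 0.24, adjusted p = 0.0245) in Ki67-negative against Ki67-positive nests, 1.16 (SE 0.24, adjusted p = 0.00128) in vismodegib against Ki67-negative nests and −0.23 (SE 0.23, adjusted p = 0.505) in vismodegib against Ki67-positive nests. Hmmr measured 50.4, 46.3, 41.1, 53.6 and 75.8 CPM in the Ki67-positive libraries, 28.6, 23.2, 12.1, 22.2 and 25.9 in the Ki67-negative ones and 52.4, 45.4, 39.6, 39.6 and 37.3 after vismodegib. Hmmr, a microtubule-binding protein that helps place Tpx2, gave −1.25 (SE 0.21, adjusted p = 0.0245) and 0.93 (SE 0.21, adjusted p = 0.00269) in those comparisons. Tpx2 stood at 40.4, 43.4, 34.1, 61.8 and 56.2 CPM in Ki67-positive nests, at 27.4, 25.5, 14.1, 21.1 and 13.8 in Ki67-negative nests and at 37.5, 50.8, 32.9, 31.97 and 29.99 after vismodegib. Tpx2, which activates Aurora A on the spindle, gave −1.21 (SE 0.23, adjusted p = 0.0355) and 0.84 (SE 0.23, adjusted p = 0.00938). The first of these calls was lost in 11 of the 15 fits that leave out 1 library (adjusted p up to 0.16). Nusap1 had 44.99, 37.1, 47.4, 57.2 and 65.1 CPM in the 5 Ki67-positive libraries, 26.5, 28.05, 13.1, 29.7 and 10.6 in the 5 Ki67-negative ones and 48.6, 70.2, 43.7, 46.8 and 37.8 in the 5 vismodegib ones. Nusap1, which bundles microtubules near chromosomes, rose by 1.19 (SE 0.27, adjusted p = 0.00242) against Ki67-negative nests and stood at −0.03 (SE 0.26, adjusted p = 0.95) against Ki67-positive ones.

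Cytokinesis genes showed the same order, with 5 of 5 called higher in vismodegib against Ki67-negative nests, 3 lower in Ki67-negative against Ki67-positive nests and 0 called between vismodegib and Ki67-positive nests (1 lower at an unadjusted p under 0.05, and 0 by DESeq2 and by voom). Anln measured 97.2, 117, 76.5, 133 and 160.4 CPM in the Ki67-positive libraries, 56.5, 68.4, 36.8, 49.5 and 46.5 in the Ki67-negative ones and 126, 176, 131, 102 and 89.2 after vismodegib. Anln, the scaffold of the contractile ring, overlapped fully between vismodegib and Ki67-positive nests, with log2 fold changes of −1.18 (SE 0.22, adjusted p = 0.03) in Ki67-negative against Ki67-positive nests, 1.27 (SE 0.22, adjusted p = 0.000242) in vismodegib against Ki67-negative nests and 0.10 (SE 0.21, adjusted p = 0.78) in vismodegib against Ki67-positive nests. Cit stood at 27.02, 48.4, 26.5, 49.8 and 59.7 CPM in Ki67-positive nests, at 18.7, 17.6, 12.3, 16.5 and 11.2 in Ki67-negative nests and at 32.8, 37.002, 25.4, 13.9 and 33.5 after vismodegib. Cit, the citron kinase of the midbody, rose by 0.90 (SE 0.28, adjusted p = 0.0195) in vismodegib against Ki67-negative nests, though vismodegib library 4 lay within the Ki67-negative range. Racgap1 had 32.9, 24.6, 22.3, 28.8 and 48.1 CPM in the 5 Ki67-positive libraries, 12.3, 18.1, 6.87, 14.2 and 12.4 in the 5 Ki67-negative ones and 19.1, 25.8, 21.4, 16.9 and 25.5 in the 5 vismodegib ones. Racgap1, the partner of Kif23 in centralspindlin, gave −1.28 (SE 0.25, adjusted p = 0.0458) and 0.76 (SE 0.25, adjusted p = 0.0282). Its call between the untreated groups was lost in 14 of the 15 fits that leave out 1 library (adjusted p up to 0.209). Prc1 measured 50.5, 49.2, 38.5, 64.6 and 88.8 CPM in the Ki67-positive libraries, 33.6, 36.5, 24.03, 23.3 and 25.3 in the Ki67-negative ones and 41.6, 61.5, 52.1, 40.7 and 34.2 after vismodegib. Prc1, which crosslinks midzone microtubules, rose by 0.69 (SE 0.22, adjusted p = 0.0249) against Ki67-negative nests. Ect2 stood at 31.3, 38.3, 21.1, 37.2 and 58.05 CPM in Ki67-positive nests, at 22.6, 11.2, 7.07, 14.2 and 4.49 in Ki67-negative nests and at 24.4, 41.6, 21.4, 19.4 and 21.1 after vismodegib. Ect2, the exchange factor that activates RhoA at the division plane, had 1 high vismodegib library (library 2) and rose by 1.10 (SE 0.36, adjusted p = 0.0274). The calls of Racgap1, Prc1 and Ect2 against Ki67-negative nests were each lost in 4 of the 15 fits that leave out 1 library, with an adjusted p of up to 0.0681, 0.0669 and 0.0763.

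Genes of chromosome structure include the 3 members with the highest level per transcript length. By the deposited size-factor-adjusted RPKM, averaged over 15 libraries, Mki67 stood at 16.5, Top2a at 11.9 and Smc4 at 9.36, while Kifc1 (0.109), Cit (0.651) and Kif14 (0.716) were lowest. Mki67 had 772, 587, 591, 782 and 1147 CPM in the 5 Ki67-positive libraries, 408, 407, 234, 353 and 402 in the 5 Ki67-negative ones and 847, 791, 669, 489 and 617.9 in the 5 vismodegib ones. Mki67, whose protein coats mitotic chromosomes, gave log2 fold changes of −1.10 (SE 0.20, adjusted p = 0.0291) in Ki67-negative against Ki67-positive nests, 0.92 (SE 0.20, adjusted p = 0.00189) in vismodegib against Ki67-negative nests and −0.18 (SE 0.20, adjusted p = 0.538) in vismodegib against Ki67-positive nests. The first of these only checks the label. The others set vismodegib nests, which carry no Ki67 label, against nests chosen by the product of this gene, so neither is independent of the label. Top2a measured 275, 256, 236, 322 and 446 CPM in the Ki67-positive libraries, 196, 136, 71.1, 138 and 113 in the Ki67-negative ones and 226, 278, 255, 239.8 and 192 after vismodegib. Top2a, the topoisomerase that untangles sister chromatids, gave −1.23 (SE 0.22, adjusted p = 0.0263) in Ki67-negative against Ki67-positive nests and 0.86 (SE 0.22, adjusted p = 0.00569) in vismodegib against Ki67-negative nests. Smc4 stood at 191, 200.01, 199, 256 and 299 CPM in Ki67-positive nests, at 149, 154, 122, 168 and 131 in Ki67-negative nests and at 278, 297, 250.4, 262 and 263 after vismodegib. Smc4, a core subunit of condensin, was above 250 CPM in every vismodegib library, and rose by 0.90 (SE 0.14, adjusted p = 7.91e-05) against Ki67-negative nests, the smallest adjusted p of any member in any comparison. Against Ki67-positive nests it stood at 0.24 (SE 0.14, adjusted p = 0.21), and libraries 4 and 5 of that group overlapped the vismodegib ones. Smc2 had 103, 89.9, 100.3, 122 and 153 CPM in the 5 Ki67-positive libraries, 77.3, 49.9, 49.7, 60.8 and 46.97 in the 5 Ki67-negative ones and 84.6, 105, 96.1, 98.8 and 74.4 in the 5 vismodegib ones. Its core partner Smc2 rose as well (0.69, SE 0.17, adjusted p = 0.00506), and the untreated groups did not overlap.

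Of the non-core subunits of condensin I, Ncapd2 and Ncapg fell in vismodegib against Ki67-positive nests. Ncapd2 measured 41.5, 58.2, 43.6, 65.1 and 70.99 CPM in the Ki67-positive libraries, 48.9, 35.4, 29.5, 23.7 and 27.7 in the Ki67-negative ones and 38.4, 33.997, 31.2, 27.7 and 36.3 after vismodegib. Ncapd2 was lower in every vismodegib library than in any Ki67-positive one (−0.74, SE 0.20, adjusted p = 0.011) and stood at 0.02 (SE 0.20, adjusted p = 0.953) against Ki67-negative nests. Ncapg stood at 36.4, 26.4, 39.9, 56.2 and 59.7 CPM in Ki67-positive nests, at 24.5, 22.5, 11.7, 17.1 and 7.78 in Ki67-negative nests and at 24.8, 26.7, 19.2, 30.6 and 22.001 after vismodegib. Ncapg fell in vismodegib against Ki67-positive nests by 0.82 on the log2 scale (SE 0.28, adjusted p = 0.036), a call lost in 5 of the 15 fits that leave out 1 library (adjusted p up to 0.101). Ncaph, the subunit that closes the ring, was at −0.55 (SE 0.22, adjusted p = 0.0723) in the same comparison. The difference between core and non-core subunits was not tested.

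**Figure D3:**
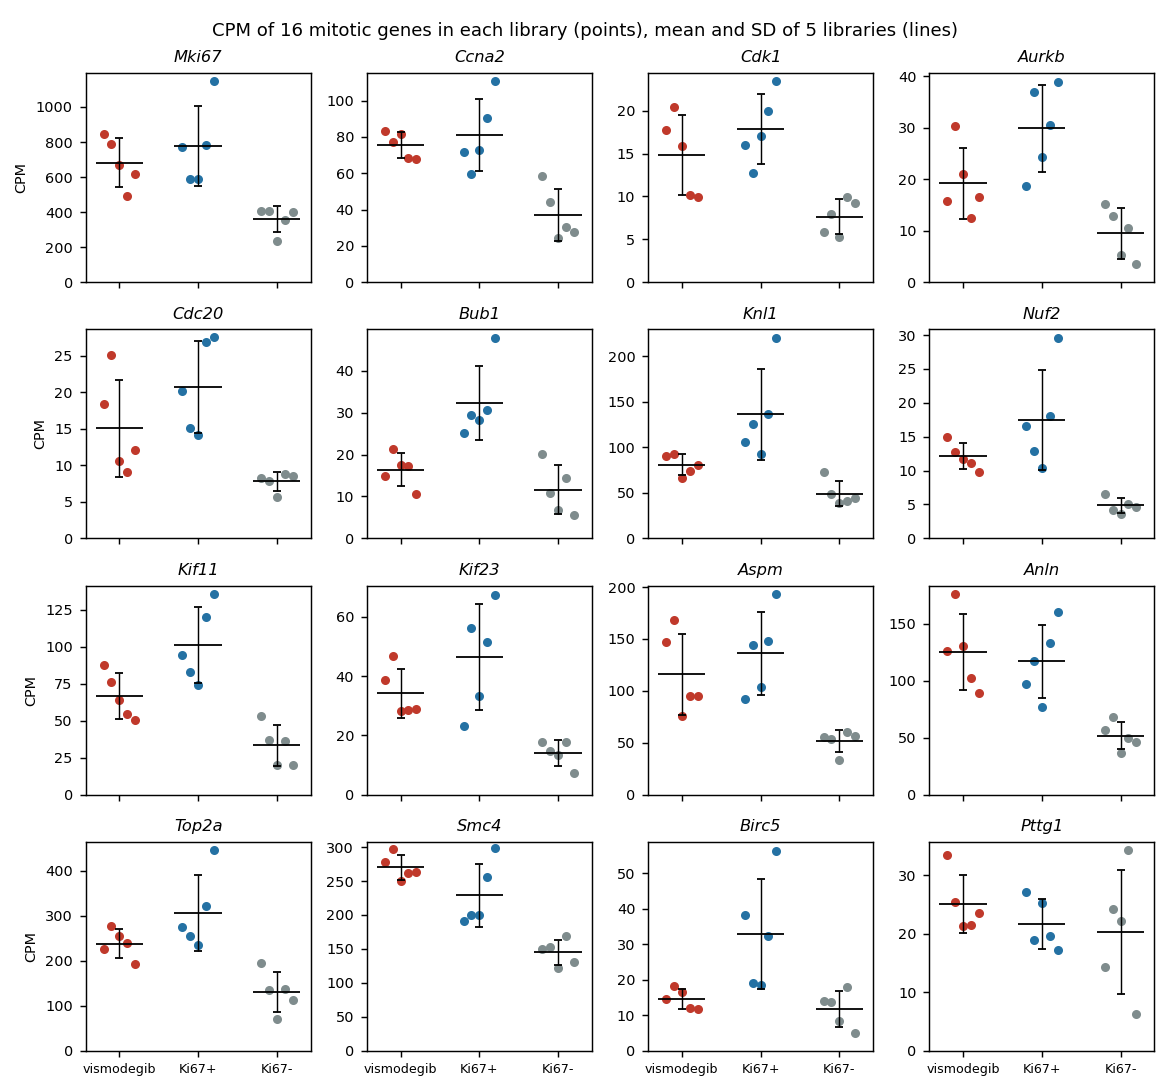
CPM (y axis, from 0) of 16 genes in each library (points), with the mean and SD of the 5 libraries of each group (black lines). For Mki67, Ccna2, Cdc20, Nuf2, Kif23, Aspm, Anln and Smc4 all Ki67-negative points lie below both other groups, and for the other genes shown they overlap the vismodegib points. Smc4 is above 250 CPM in all vismodegib libraries, Birc5 after vismodegib lies below the Ki67-positive points, and the 3 groups overlap for Pttg1.

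The members also varied together between libraries of a group. Ki67-positive library 5 was the highest of all 15 libraries for 47 of the 59 genes, where it was the highest for 5.94% of all genes tested. Ki67-negative library 3 was the lowest for 31 (7.27% of all genes) and Ki67-negative library 5 for 19 (19.7% of all genes). After vismodegib, library 2 was the highest of its group for 34 members and library 1 for 16, against 23.6% and 16.8% of all genes. The median deviation of the members from their 15-library mean was 1.11 (log2) in Ki67-positive library 5 and 0.76 in library 4, and 0.17 to 0.35 in the other Ki67-positive libraries. It was −0.03 to 0.41 in the vismodegib libraries and −1.07 to −0.30 in the Ki67-negative ones, while the median over all genes stayed within −0.025 and 0.029 in every library. Ki67-negative library 3 and Ki67-positive library 5 are also the 2 libraries with the fewest counts (4887381 and 4929869), and lie at opposite ends for the members.

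**Figure D4:**
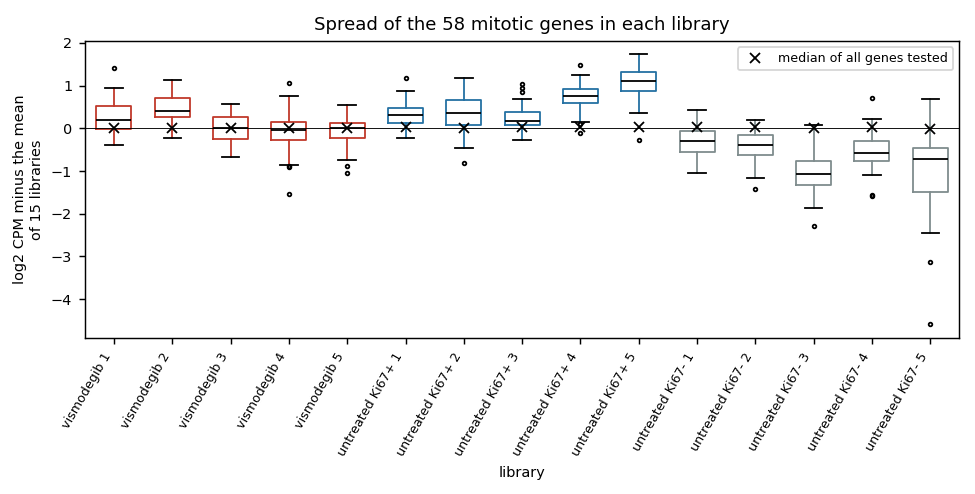
Log2 CPM minus the 15-library mean (y axis) of the 58 measured genes in each library (x axis), as boxes of the quartiles with the median as a black line, whiskers to 1.5 times the box and points beyond. Crosses give the median of all genes tested and stay near 0, while the boxes run from a median of −1.07 in Ki67-negative library 3 to 1.11 in Ki67-positive library 5.

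**Figure D5:**
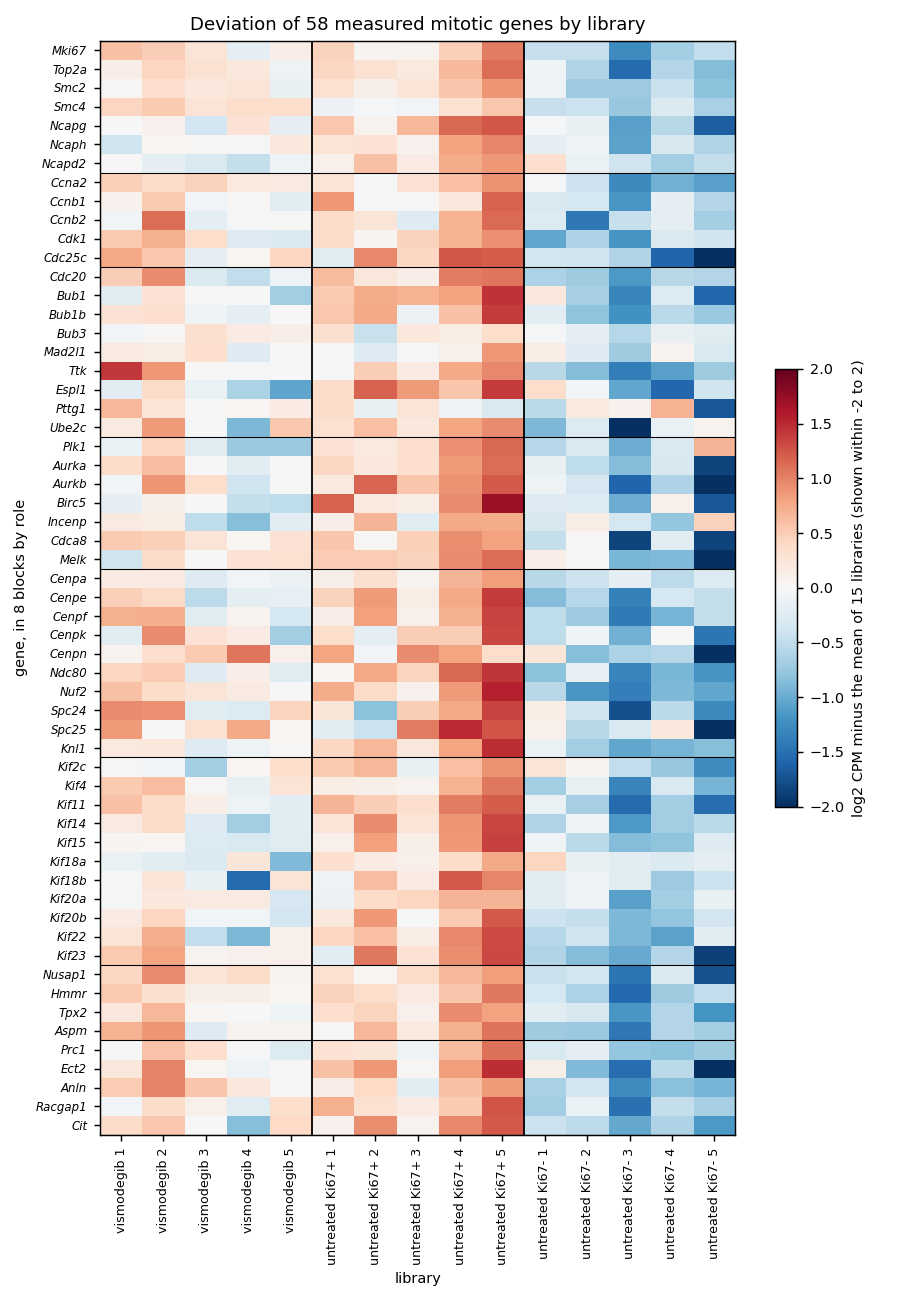
Log2 CPM minus the mean of 15 libraries (colour, red above and blue below the mean) for the 58 measured genes (y axis, in 8 blocks by role) in each library (x axis). The Ki67-negative columns are mostly blue and the columns of Ki67-positive libraries 4 and 5 mostly red, whereas Pttg1 follows no group.

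More of the highly expressed members passed the test. Of the 29 members above the median level of the 58 (a mean log2 CPM of 4.57), 17 were called lower in Ki67-negative against Ki67-positive nests, and of the 29 at or below it 4. The median fold changes were −1.21 and −1.30, so the less expressed members were no closer to 0. In vismodegib against Ki67-negative nests the counts were 21 and 10, with medians of 0.82 and 0.74.

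Counts of genes outside the list are to be read against all genes tested, of which 15.4% were called higher and 16.5% lower in vismodegib against Ki67-negative nests, and 12.6% higher and 13.4% lower in vismodegib against Ki67-positive nests. Between the untreated groups 0.174% of all genes were called lower and none higher. Other genes called lower in Ki67-negative against Ki67-positive nests, named here because of that call, included the kinetochore genes Knstrn (−1.36) and Ska3 (−1.27), the midbody gene Cep55 (−1.81), the cohesin acetyltransferase gene Esco2 (−1.51), the replication gene Ticrr (−1.26), the cytoskeletal genes Gas2l3 (−1.32) and Arhgap11a (−1.49), and the DNA glycosylase gene Neil3 (−1.87), with adjusted p of 0.0211 to 0.0384. Among 33 other centromere and kinetochore genes, 2 fell there, 5 rose and 1 fell in vismodegib against Ki67-negative nests, and 2 rose and 4 fell in vismodegib against Ki67-positive nests. Of 31 centrosome and spindle assembly genes the counts were 1 fallen, then 6 risen and 1 fallen, then 1 risen and 5 fallen. For both lists the shares in the vismodegib comparisons were near or under those of all genes. Ckap2, a spindle protein, rose by 1.46 (SE 0.39, adjusted p = 0.00786) in vismodegib against Ki67-negative nests. Cep135, of the centriole, was lower after vismodegib than in the Ki67-positive and Ki67-negative groups (−0.73 and −0.80, adjusted p = 0.00894 and 0.00437).

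Transcription factors and other regulators of mitosis had a median of −0.49 between the untreated groups. Of 22 measured, 0 were called in Ki67-negative against Ki67-positive nests (8 were lower at an unadjusted p under 0.05, and DESeq2 and voom called 1 and 0 lower). In vismodegib against Ki67-negative nests 6 rose (27.3%, against 15.4% of all genes). In vismodegib against Ki67-positive nests 1, the Aurora A activator gene Bora, fell (−1.11, SE 0.24, adjusted p = 0.00176). Foxm1, the activator of many mitotic genes, was at 44.7 ± 12.8 CPM in Ki67-positive nests, 20.1 ± 6.48 in Ki67-negative nests and 31.9 ± 8.52 after vismodegib (SD, n = 5 each), with −1.15 (SE 0.25, adjusted p = 0.0857) between the untreated groups, and rose by 0.66 (SE 0.25, adjusted p = 0.0496) in vismodegib against Ki67-negative nests. Of 15 anaphase-promoting complex subunits, 0 were called between the untreated groups (0 at an unadjusted p under 0.05, by DESeq2 and by voom), with a median of 0.10, and only Anapc13 rose after vismodegib, against both untreated groups. Of 14 cohesin genes, 1 fell between the untreated groups (7.14%, against 0.174% of all genes). In vismodegib against Ki67-negative nests 3 rose and 1 fell, and 2 rose against Ki67-positive nests. The cohesin shares called in either direction, 28.6% against Ki67-negative and 14.3% against Ki67-positive nests, were under those of all genes (31.9% and 26.0%). Of 4 genes of condensin II and chromosome compaction, Ncapg2 and Ncaph2 rose against Ki67-negative nests (0.52 and 0.60).

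Genes of DNA replication and the start of S phase, which act before mitosis, were mostly lower in Ki67-negative than in Ki67-positive nests. Of 38, 35 had a fold change below 0 (92.1%, against 48.9% of all genes). In that comparison 0 of the 38 were called, with a median of −0.57. At an unadjusted p under 0.05, 21 were lower, against 3.31% of all genes, and DESeq2 and voom called 4 and 0 lower. Against Ki67-negative nests 9 rose after vismodegib (median 0.50), among them the primase gene Prim1 (1.36, SE 0.25, adjusted p = 0.000484) and Rpa2 (0.94, SE 0.20, adjusted p = 0.00176), a single-strand binding protein gene. Against Ki67-positive nests 1 rose and 2 fell (median −0.06), with E2f2 at 0.77 (SE 0.27, adjusted p = 0.0423) and Mcm10 at −1.24 (SE 0.35, adjusted p = 0.0128).

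Markers of other cell types also differed between vismodegib and untreated nests. Of 10 measured leukocyte genes, 7 rose in vismodegib against Ki67-positive and 5 against Ki67-negative nests, with summed levels of 579 to 1527 CPM after vismodegib, 76.2 to 376 in Ki67-positive nests and 119 to 376 in Ki67-negative nests. Ptprc, the pan-leukocyte gene, was at 41.1 to 93.9, 8.04 to 24.9 and 10.003 to 50.4 CPM in that order. Fibroblast genes had 2 of 7 lower in each comparison with vismodegib (summed CPM in vismodegib, Ki67-positive and Ki67-negative libraries 409.6 to 3539, 1627 to 5663 and 2425 to 4544), and endothelial and pericyte genes 2 of 6 (88.3 to 139, 401 to 773 and 523 to 865 CPM). Of 5 melanocyte genes 4 fell against Ki67-positive and 3 against Ki67-negative nests (54.6 to 322, 294 to 1462 and 151 to 1144 CPM). No gene of these lists was at 0 in every library. Between the untreated groups these lists had 0 calls by edgeR, DESeq2 and voom, and 1 melanocyte gene and no other was below an unadjusted p of 0.05. Genes of basal epithelium changed as well, with 4 risen (among them Krt5, Krt14 and Itga6) and 3 fallen (among them Sox9) of 11 in vismodegib against Ki67-positive nests. These lists moved with the vismodegib group, and their part in the vismodegib comparisons was not tested.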

How the data were processed

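Polyadenylated RNA of laser-captured nests was sequenced in 15 libraries. Reads were aligned with GSNAP to GRCm38, per the submitters' processing notes, and uniquely aligned reads were deposited as counts per gene model, per the file headers. Unique alignment can lower genes that have near-identical copies, such as Kifc1. The deposited RPKM were divided by a size factor per library by the authors, per the file headers, and were used here only to compare levels between genes. No source used here gives strand use or versions.

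Identifiers were matched to symbols by NCBI Gene ID (31049 of 36528; unmatched ones held 2.258 to 3.934% of counts). Totals were 4887381 to 10328822 counts. Counts were fitted with edgeR 4.0.16 in R 4.3.3, using TMM scaling, a filter on low counts (filterByExpr, minimum count 10, minimum total 15), 3 groups in 1 fit and the robust quasi-likelihood test, with Benjamini-Hochberg adjustment over 17282 genes with 0.05 as the threshold for a call. Each standard error is the fold change over the square root of F. The biological coefficient of variation was 0.348. Replicate libraries of a group differed beyond counting noise (chi-square per degree of freedom 13.24 to 43.32), so none was merged. Alternatives were DESeq2 1.42.0, its size factors, voom in limma 3.58.1, no filter, a minimum count of 50, only the groups compared, an Xist covariate, and leaving out each library. Leaving out 2 libraries together and counting unadjusted p-values and separated groups were chosen after seeing the data.

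The members and lists were chosen with earlier results of these data known. Values in every library are given for members called in any comparison (up to 4 with the smallest adjusted p per role and comparison), for 13 representatives including Mki67, Cdk1, Plk1 and Top2a, and for the 3 highest and 3 lowest by RPKM. Of other lists, up to 4 called genes with the smallest adjusted p may be named, and other genes named were chosen after their values were seen. Promoters are RefSeq windows of GRCm38.p6, the first listed for each gene. The labels tie no library to an animal, so p-values measure the spread between these libraries, which may be partly technical. A further result is not reported here.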

Additional observations from a re-analysis of the deposited data

Results flagged for a closer look

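In 7 of the 177 sets of 5 libraries (59 genes in 3 groups), 1 library stood far from the other 4, with its gap to the nearest library above 0.71 of the range of the group. Chance flags about 1 in 20 such sets, which is about 8.8 of 177, so the number is no more than chance gives. Vismodegib library 2 was the highest of its group for Ccnb2 at 52.0 CPM (next 24.1) and for Ect2 at 41.6 CPM (next 24.4). Ki67-positive library 5 was the highest for Bub1 at 47.7 CPM (next 30.6) and for Mad2l1 at 32.6 CPM (next 19.1). Among Ki67-negative libraries, library 5 was the highest for Plk1 at 13.5 CPM (next 6.66), library 1 the highest for Kif18a at 49.2 CPM (next 32.9), and library 3 the lowest for Aspm at 33.5 CPM (next 54.0).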

How the results depend on the processing

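The median fold change of the members kept its sign in each comparison under every alternative run. The counts of calls did not. In Ki67-negative against Ki67-positive nests, the 21 members called lower became 42 with DESeq2, 10 with voom, 0 with only the groups compared and 0 without Ki67-positive library 5 and Ki67-negative library 3 together, and 0 to 23 when each library was left out. The 30 genes called lower in all became 83, 15, 0 and 0 in that order, and 0 to 43, and the 0 called higher became 5 with DESeq2 and 0 to 1 when each library was left out. In vismodegib against Ki67-positive nests, the 11 members became 4 without those 2 libraries together and up to 16 under the other alternatives. They became 3 to 15 when each library was left out. The 31 members higher against Ki67-negative nests became 21 to 33 when each library was left out. The cause was not tested. Fold changes near 0 changed sign. Against Ki67-positive nests, without both libraries, Mki67 gave 0.003, Ccna2 0.042, Kif4 0.002 and Nusap1 0.084, with an Xist covariate Ttk gave −0.231 and Anln −0.068, and with voom Ttk gave −0.059. Leaving out each library gave −0.27 to 0.004 for Mki67, −0.185 to 0.043 for Ccna2, −0.25 to 0.20 for Ttk, −0.285 to 0.003 for Kif4, −0.184 to 0.085 for Nusap1 and −0.057 to 0.241 for Anln. Against Ki67-negative nests, an Xist covariate gave −0.026 for Ncapd2 and −0.15 for Espl1, leaving out both libraries gave −0.015 for Ncapd2, and leaving out each library gave −0.078 to 0.202 for Ncapd2, −0.074 to 0.41 for Espl1 and −0.26 to 0.31 for Plk1. No paired analysis was possible because the labels give no replicate numbers. Ki67 group and the later accession range cannot be told apart. Kifc1, with 92 counts, was not tested, and for Spc25 in Ki67-negative library 5 a count of 0 allows up to 0.449 CPM.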
